A study of Mus musculus with 24 samples.

Results

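Input DNA from male (XY) mouse embryonic fibroblasts was compared between SIRT7-KO and WT cells, in bins of 100 kb, as a map of where the amount of DNA differed between the cultures. The comparison used 4 of the 24 libraries of the series, 2 KO and 2 WT, and every autosomal bin with enough reads for a test, 24033 of the 24639 autosomal bins among 27268 bins in all. The study profiled the histone variant H2AX and its phosphorylated form gH2AX, a mark of DNA breaks, by ChIP-seq in primary fibroblasts (MEF, labelled C57BL6) of both sexes. All groups, the controls included, had received 5 Gy of X-rays and 30 min of recovery, so no unirradiated cells enter any comparison here. Input is crosslinked, sonicated chromatin taken to sequencing with no antibody. The groups used were male KO, male WT, female KO and female WT input (2 libraries each), and the H2AX and gH2AX libraries of the same male groups (2 each). The female KO and WT libraries of H2AX and gH2AX (2 each) entered the fits of those marks, for the spread, but are not compared here. The labels give SIRT7-KO with no further detail of the allele and leave out whether replicate libraries are from different embryos or cultures. P-values therefore measure the spread between these libraries, which may be technical, and a difference between KO and WT cannot be told apart from a difference between the particular embryos or cultures.

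Reads from input chromatin are proportional, to a first approximation, to the number of DNA copies in the cells, which is why input serves as a readout of gene dosage as well as a control for ChIP. Colonies of an inbred strain are not genetically identical: segmental duplications and deletions arise and drift in them, and the stretch of chromosome 19 that holds Ide and Fgfbp3 is known to vary in copy number among C57BL/6J mice. Primary fibroblasts may also gain or lose chromosome segments as they divide in culture. In bulk DNA, fewer cells with a change and a smaller change per cell cannot be told apart.

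The 4 male input libraries held 92413132 and 220917239 reads (KO) and 110444097 and 160959457 reads (WT), a median of 3256 to 7803 reads per autosomal bin. Levels are given below relative to the median autosomal bin of each library, which is 1. The X chromosome had a median level of 0.553 to 0.555 in the male libraries and 1.01 to 1.02 in the female ones, and Y reads made up 1.57% to 1.6% of male and 0.0907% to 0.0918% of female reads, so the libraries match their labelled sex. Input DNA carries no expression, so the fibroblast label cannot be checked with marker genes. Between the 2 libraries of a group the log2 ratio per bin had an SD of 0.050 (KO) and 0.049 (WT) over 23680 bins at 0.5 to 1.5 times the median level, and no bin differed by more than 0.3.

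Most of the autosomal genome had the same DNA dosage in KO and WT cells. The log2 difference was within 0.1 in 99% and within 0.2 in 99.9% of the 24033 bins. The test (edgeR's quasi-likelihood test, Benjamini-Hochberg adjusted p under 0.05) called 53 bins, 0.221% of those tested: 23 were higher in KO (0.0957%) and 30 lower (0.125%). In all 53 the KO and WT libraries did not overlap, which a call makes likely and which adds no support of its own. Uncalled bins could also be without overlap, such as that of Hhex (log2 0.07, adjusted p = 0.663). The share without overlap over all tested bins is not given here. An unadjusted p under 0.05 was reached by 1822 bins, and without WT replicate 1 the number called was 34. The median size of a called difference was 0.16 on the log2 scale: 37 called bins were under 0.2, 5 lay between 0.2 and 0.3, and 11 were at or past 0.3, the step used here (6 higher and 5 lower). In cells that all carry it, a change from 2 copies to 1 would give a log2 of -1 and a change from 2 to 3 copies 0.58. No autosomal bin reached the near-halving limit of -0.8, and 2 lay past 0.58: a bin next to Sirt7, described below, and the uncalled bin of chromosome 7 that starts at 39000001, which held very few reads. The called bins were unevenly spread, with 15 of 1791 on chromosome 2 (0.838%, 13 of them lower), 6 of 583 on chromosome 19 (1.03%, all higher), 6 of 1171 on chromosome 12 (0.512%, all lower) and none on chromosome 6.

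**Figure D1:**
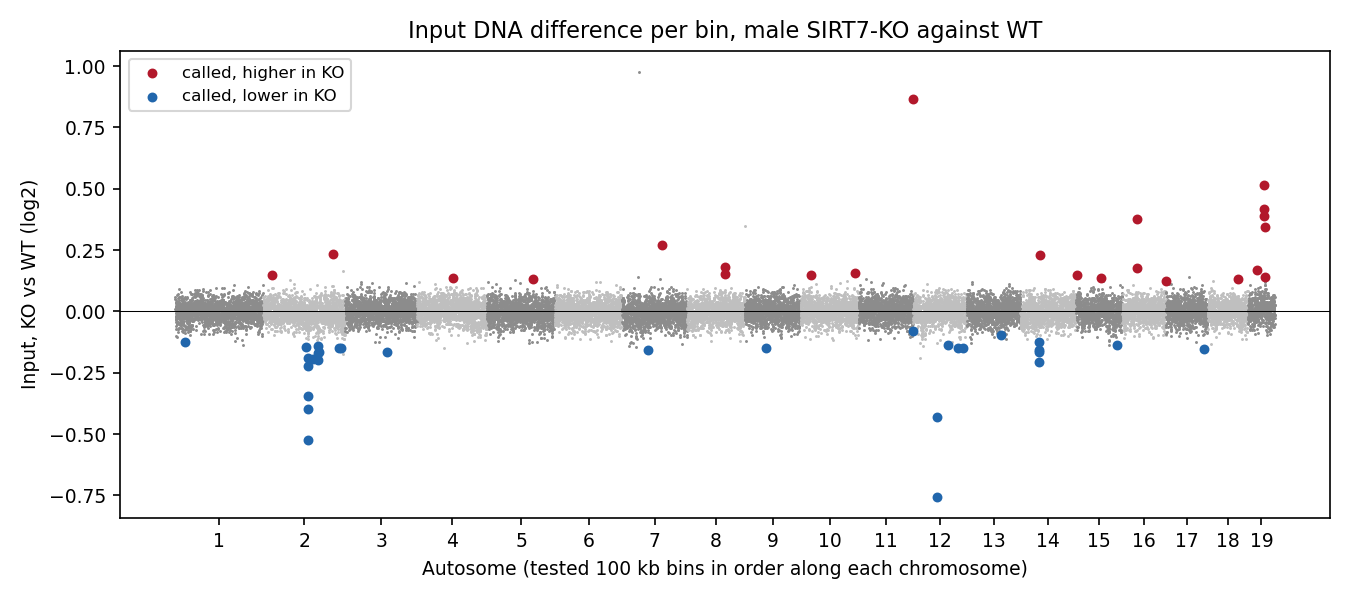
Each point is a tested 100 kb autosomal bin, in order along the chromosomes, with its log2 difference in input between male KO and WT on the vertical axis; the 23 bins called higher in KO are red and the 30 called lower are blue. The highest called difference is the bin at 0.86 on chromosome 11 and the lowest that of Srp54b at -0.76 on chromosome 12, and the 3 neighbouring bins on chromosome 2 form the run.

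The targeted gene itself showed no dosage difference at this resolution. Sirt7 (chromosome 11, 120618371 to 120625014), which encodes a nuclear deacylase, lies in a bin with levels of 1.02 and 0.94 in KO and 0.99 and 0.96 in WT. Its log2 difference was 0.00 ± 0.03 (SE from the fit, n = 2 libraries a group, adjusted p = 0.995). The SE of a bin is here the size of its log2 difference over the square root of the test's F. It rests on a spread shared across bins and groups, and can be smaller than the spread between the 2 libraries of a group. A deletion of part of a gene is small beside a 100 kb bin, so this bin does not check the genotype.

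The neighbouring bin held the largest called difference. It spans chromosome 11, 120500001 to 120600000, and holds P4hb (protein disulfide isomerase, also a subunit of collagen prolyl 4-hydroxylase), Gcgr (the glucagon receptor), Mcrip1, Ppp1r27, Arhgdia and Alyref (an mRNA export adaptor). Its level was 1.72 and 1.75 in the KO libraries and 0.96 and 0.95 in WT. The KO libraries were 1.82-fold higher, a log2 difference of 0.86 ± 0.03 (SE, adjusted p = 6.39e-56). The female libraries showed the same step, at 1.75 and 1.71 in KO and 1.00 and 1.00 in WT, with a log2 difference of 0.79 ± 0.03 (adjusted p = 3.88e-53). The difference between the sexes was 0.07 and did not pass the test (adjusted p = 0.627). The bin before it, which starts at 120400001, had a log2 of 0.02 and the Sirt7 bin after it 0.00. The step therefore ended inside 1 bin on either side, and the excess amounted to 78.0 kb of DNA at the autosomal median level.

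**Figure D2:**
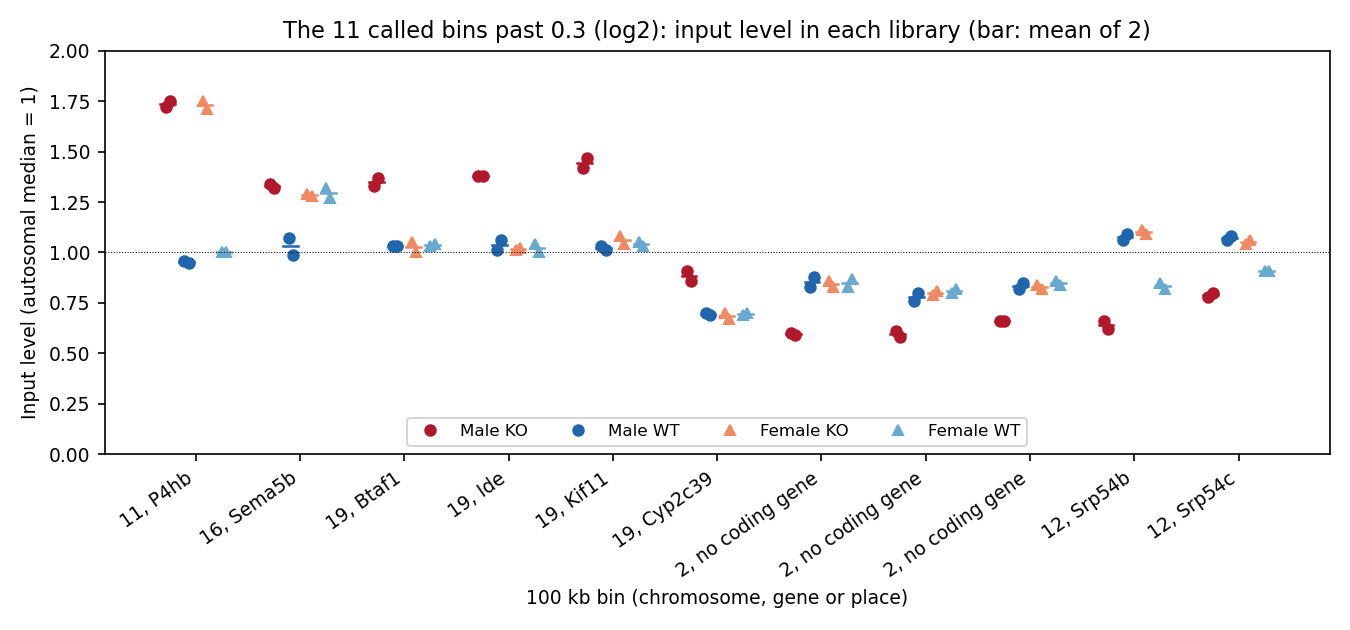
Input level (autosomal median = 1, linear axis from 0) of the 11 called bins with a log2 difference of at least 0.3, with a point for each of the 8 input libraries and a bar for each group's mean of 2. The P4hb bin is high in KO of both sexes. The bins of chromosome 19 and of chromosome 2 stand apart in male KO alone among the 4 groups. In the bin over the start of Sema5b male WT is the low group.

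A stretch of chromosome 19 was higher in male KO cells in 3 separate bins. The bin from 36900001 to 37000000 holds Btaf1 (an ATPase that removes TATA-binding protein from DNA) and Fgfbp3 (a secreted binder of fibroblast growth factors), and had levels of 1.33 and 1.37 in KO and 1.03 and 1.03 in WT. Its log2 difference was 0.39 ± 0.03 (SE, adjusted p = 8.06e-21). The next bins, over Cpeb3 (an RNA-binding translation regulator), were at 0.00 and 0.06 and did not pass the test. The bin from 37200001 to 37300000 holds Marchf5 (a mitochondrial ubiquitin ligase) and part of Ide (the insulin-degrading enzyme). Its levels were 1.38 and 1.38 in KO and 1.01 and 1.06 in WT, a log2 difference of 0.42 ± 0.03 (adjusted p = 1.31e-22). The bin from 37300001 to 37400000 holds the rest of Ide and the start of Kif11 (the mitotic kinesin Eg5), at 1.42 and 1.47 in KO and 1.03 and 1.01 in WT. Its difference was 0.51 ± 0.03 (adjusted p = 1.62e-30), and the bin after it, with Hhex (a homeobox factor), was at 0.07 (adjusted p = 0.663). The 4 female libraries stayed between 1.00 and 1.08 in the 3 raised bins, and the KO effect differed between the sexes by 0.41, 0.43 and 0.48. Over the 500 kb the male KO libraries held 113.8 kb more DNA than WT, at the autosomal median level. The raised bins did not form a run by the rule used (at least 3 neighbours past 0.3), because the flat Cpeb3 bins separate them.

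Further along chromosome 19, a bin of the Cyp2c family, cytochrome P450 enzymes that oxidise drugs and fatty acids, was also higher in male KO. It runs from 39300001 to 39400000 and holds parts of Cyp2c29, Cyp2c38 and Cyp2c39. The levels were 0.91 and 0.86 in KO and 0.70 and 0.69 in WT, while the female libraries lay at 0.67 to 0.70. The log2 difference was 0.34 ± 0.04 (SE, adjusted p = 1.02e-11) and differed from that in females by 0.36. The preceding bin, from 39200001, rose by 0.14 (adjusted p = 0.0392), and the next, from 39400001, was at 0.08 and did not pass. The 2 called bins together held 28.4 kb more DNA in KO. WT cells lay well below the autosomal median here, and KO cells nearer to it.

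On chromosome 16 the step had the same sign but another group stood apart. The bin from 35500001 to 35600000, over the start of Sema5b (a semaphorin, a guidance protein), had levels of 1.34 and 1.32 in male KO and 1.07 and 0.99 in male WT, a log2 difference of 0.38 ± 0.03 (SE, adjusted p = 9.83e-20). The female libraries lay at 1.27 to 1.32, next to the male KO value. Against the mean of the female groups, male WT differed by -0.34 (adjusted p = 1.04e-22) and male KO by 0.04 (adjusted p = 0.594). The bin before it, over Pdia5 (a protein disulfide isomerase), behaved alike at a smaller size, with 1.15 and 1.15 in KO, 1.03 and 1.02 in WT and 1.13 to 1.16 in the females, and a log2 of 0.18 (adjusted p = 9.59e-05). The bin from 35600001, which holds most of the body of Sema5b, was flat at 0.02 (adjusted p = 0.948). Of the loci with a step past 0.3, male WT was the group unlike the other 3 only in the called bins of chromosome 16.

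The only run of neighbouring stepped bins in the autosomes was lower in KO and held no protein-coding gene. It covers chromosome 2, 100500001 to 100800000, inside a desert in which the nearest coding gene on the right is Iftap, in the bin that starts at 101500001. In the first bin the level was 0.60 and 0.59 in KO and 0.83 and 0.88 in WT, a log2 difference of -0.52 ± 0.04 (SE, adjusted p = 1.48e-22). In the second it was 0.61 and 0.58 against 0.76 and 0.80 (-0.40 ± 0.04, adjusted p = 2.26e-14), and in the third 0.66 and 0.66 against 0.82 and 0.85 (-0.34 ± 0.04, adjusted p = 5.3e-12). The KO libraries were the lowest of the 8 in every bin of the run, and male WT and the females overlapped at 0.76 to 0.88. Male KO differed from the mean of the female groups by -0.51, -0.44 and -0.35, while male WT differed by 0.01, -0.04 and -0.01. In females the KO effect was 0.00, -0.02 and -0.03.

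The edges of the run were unlike. On the right it ended within a bin, as the bin from 100800001 was at 0.01. On the left the bin from 100400001 was at -0.22 (adjusted p = 1.65e-05) and, after 2 uncalled bins at -0.07 each, the bin from 100100001 was at -0.19 (adjusted p = 0.000428). The difference over the run came to -62.0 kb of 300 kb, and all 8 libraries were below the autosomal median there. With its left neighbours, over 7 bins from 100100001, every bin was lower in KO (log2 -0.52 to -0.07) and the difference came to -96.3 kb. The stretch holds 2 pseudogenes of equal length, Gm13812 at 100459690 and Gm13810 at 100626199, each of 2154 bases.

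The called bin with the most negative difference lay on chromosome 12, at a cluster of copies of Srp54. The gene encodes the GTPase subunit of the signal recognition particle, which targets nascent secretory proteins to the endoplasmic reticulum, and the mouse reference carries Srp54a, Srp54b and Srp54c side by side. Their promoters (a window of 300 bases near the start, RefSeq, GRCm38.p6, plus strand) are shown to mark stretches that these 3 windows share. Capitals mark bases that lie in a stretch of at least 50 bases found letter for letter in another of the 3 promoters. The windows begin at chromosome 12, 55080246 (Srp54a), 55154854 (Srp54b) and 55230127 (Srp54c).
Srp54a: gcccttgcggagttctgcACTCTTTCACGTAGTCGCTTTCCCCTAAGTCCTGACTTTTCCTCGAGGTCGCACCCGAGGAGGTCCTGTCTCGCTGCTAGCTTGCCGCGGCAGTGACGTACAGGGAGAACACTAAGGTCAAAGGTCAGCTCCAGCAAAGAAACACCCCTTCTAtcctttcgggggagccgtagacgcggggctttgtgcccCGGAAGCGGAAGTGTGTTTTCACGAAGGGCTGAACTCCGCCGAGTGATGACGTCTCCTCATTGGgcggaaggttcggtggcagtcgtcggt
Srp54b: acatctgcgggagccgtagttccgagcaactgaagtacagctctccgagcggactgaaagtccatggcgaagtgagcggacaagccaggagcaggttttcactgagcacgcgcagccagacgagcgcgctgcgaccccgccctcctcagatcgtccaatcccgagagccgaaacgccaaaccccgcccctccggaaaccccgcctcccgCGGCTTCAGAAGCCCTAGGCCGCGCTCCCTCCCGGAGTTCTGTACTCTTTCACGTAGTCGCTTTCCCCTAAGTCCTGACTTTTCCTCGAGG
Srp54c: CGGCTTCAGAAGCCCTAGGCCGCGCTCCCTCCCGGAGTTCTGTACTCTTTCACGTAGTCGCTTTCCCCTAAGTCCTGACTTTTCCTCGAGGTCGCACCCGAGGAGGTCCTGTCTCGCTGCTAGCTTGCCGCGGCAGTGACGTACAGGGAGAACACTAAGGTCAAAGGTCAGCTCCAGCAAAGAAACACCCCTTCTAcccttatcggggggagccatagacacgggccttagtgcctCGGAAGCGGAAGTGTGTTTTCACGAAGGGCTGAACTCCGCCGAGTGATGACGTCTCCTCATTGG
Srp54a and Srp54c shared a stretch of 153 bases and 81.0% identity over the promoter, and Srp54b and Srp54c one of 91 bases and 54.6%. Srp54a and Srp54b were 48.5% identical, and their longest shared stretch was 48 bases. The windows are not placed alike. The Srp54b gene starts at 55155104, inside its window, and the Srp54c gene at 55230118, before its window begins. The last 91 bases printed for Srp54b are the first 91 printed for Srp54c. The identities therefore depend on window placement, and lowercase bases do not show where the copies differ. Across the genome 0.648% of 32544 distinct promoter sequences are shared whole by more than 1 gene symbol. That counts windows equal over their whole length, so it is no background for stretches of 50 bases or for percent identity. How the authors' alignment placed reads that fit several copies is not given in the sources used here, so a level in this cluster may mix the copies.

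At that cluster male KO was the lowest group and the female groups differed in the opposite direction, which no other locus with a step past 0.3 showed. In the bin from 55100001 to 55200000 (Srp54b, Fam177a and the end of Srp54a) the level was 0.66 and 0.62 in male KO and 1.06 and 1.09 in male WT, a log2 difference of -0.76 ± 0.04 (SE, adjusted p = 3.65e-39), or 0.592-fold. The female levels were 1.11 and 1.09 in KO and 0.85 and 0.82 in WT, a difference of 0.39 ± 0.03 (adjusted p = 1.09e-17). The next bin, from 55200001 to 55300000 (Srp54c, Ppp2r3c and Fam177a2), was at 0.78 and 0.80 in male KO and 1.06 and 1.08 in male WT (-0.43 ± 0.03, adjusted p = 1.58e-20), with 1.04 and 1.06 in female KO and 0.91 and 0.91 in female WT. The effect differed between the sexes by -1.14 (adjusted p = 4.94e-43) and -0.64 (adjusted p = 8.72e-23). Male WT and female KO thus lay near the autosomal median, female WT below it and male KO lowest in both bins. The bin with most of Srp54a was at -0.13 and did not pass the test (adjusted p = 0.0562), and the bin from 55300001 was at 0.03. The difference over the 2 called bins came to -71.2 kb of 200 kb.

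**Figure D3:**
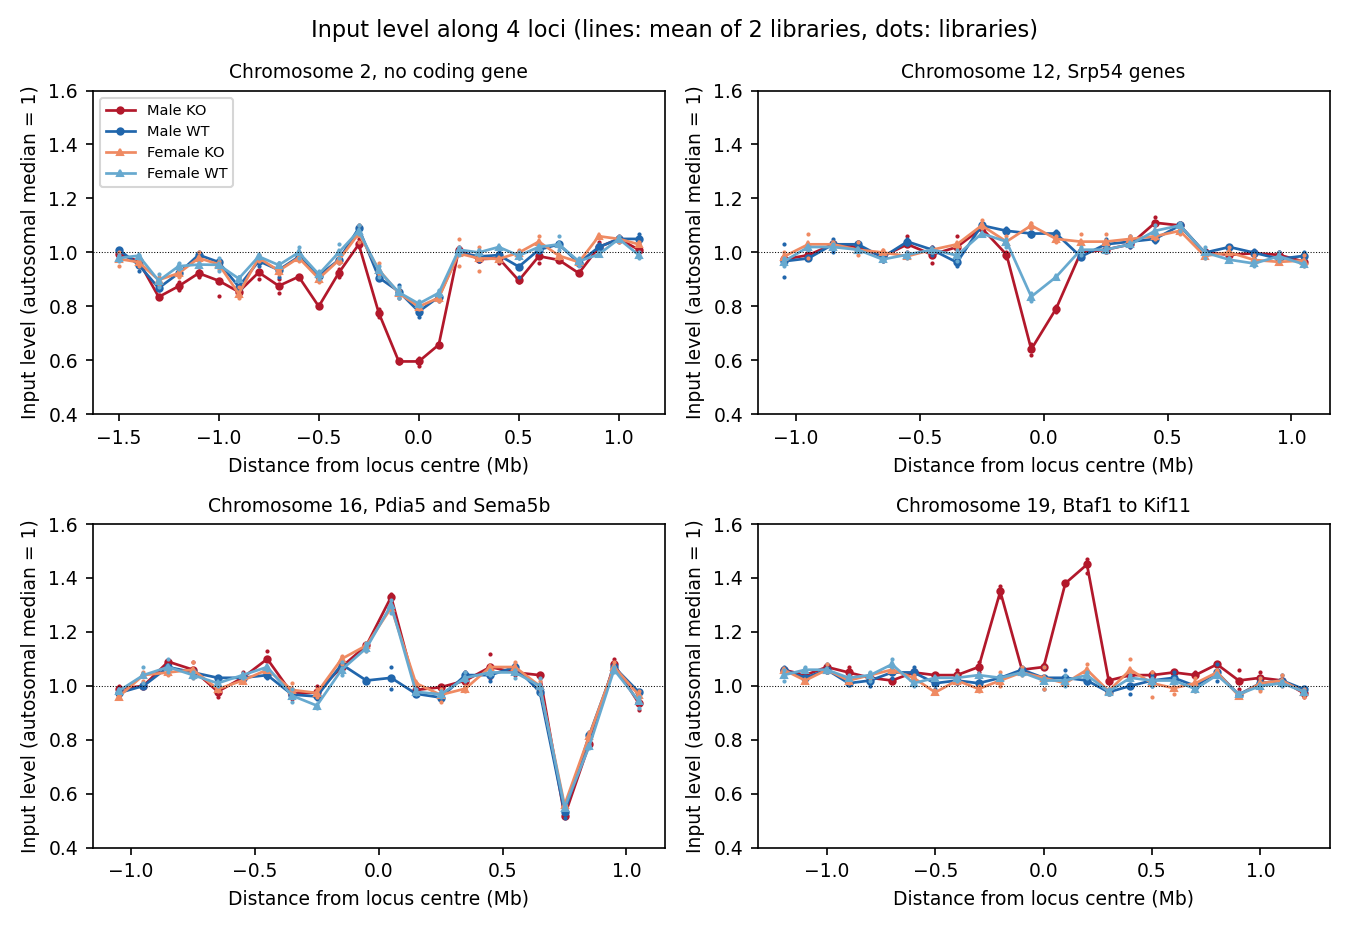
Input level (autosomal median = 1) by distance from the centre of 4 loci, in Mb, with lines for the mean of 2 libraries and dots for libraries. Male KO drops over 3 bins on chromosome 2 and is lowest on chromosome 12, male WT alone misses the peak on chromosome 16, and male KO has a single and a double raised bin around flat Cpeb3 bins on chromosome 19. The dip at the right of the chromosome 16 panel is shared by all 4 groups.

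The Cyp2c promoters are shown beside them as a second family, in windows with shorter shared stretches. Cyp2c29 (from chromosome 19, 39286835) and Cyp2c39 (from 39347096), both on the plus strand and printed from the same RefSeq table, were 75.7% identical. Capitals mark the longest stretch they share, of 23 bases.
Cyp2c29: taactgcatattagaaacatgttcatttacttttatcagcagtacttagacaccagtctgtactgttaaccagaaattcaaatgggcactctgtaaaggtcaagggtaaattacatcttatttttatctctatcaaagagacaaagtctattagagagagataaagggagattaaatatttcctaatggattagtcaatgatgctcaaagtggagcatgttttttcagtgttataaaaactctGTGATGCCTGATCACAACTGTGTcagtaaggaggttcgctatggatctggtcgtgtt
Cyp2c39: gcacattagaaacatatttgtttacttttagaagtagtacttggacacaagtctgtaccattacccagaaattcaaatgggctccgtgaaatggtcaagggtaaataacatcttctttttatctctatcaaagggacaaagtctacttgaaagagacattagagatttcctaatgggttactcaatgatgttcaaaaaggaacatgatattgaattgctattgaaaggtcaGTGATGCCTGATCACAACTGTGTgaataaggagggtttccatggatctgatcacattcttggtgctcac
No pair among Cyp2c29, Cyp2c38 and Cyp2c39 shared a promoter stretch of 50 bases, and the identities ran from 70.8% to 78.1%.

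Chromosome 14 held a small coordinated difference in a block of repeated genes. The 4 bins from 43200001 to 43600000 hold members of a family of gene models around Gm8126, 1700001F09Rik and Gm21154, and lay at levels of 0.94 to 3.1. Male KO was lower in each, by -0.16, -0.16, -0.21 and -0.13 on the log2 scale. The largest, from 43400001, was at 0.94 and 0.95 in KO and 1.1 and 1.08 in WT (adjusted p = 6.95e-06). In females that bin went the other way, 1.09 and 1.05 in KO against 0.94 and 0.96 in WT, a log2 difference of 0.17, and the sexes differed by -0.38. The group order was that of the Srp54 cluster in part, with male WT next to female KO and male KO next to female WT.

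Among the called bins were some of the bins with the highest H2AX signal over input. The bin of chromosome 7 from 90400001 holds Sytl2 (a vesicle-tethering protein) and Tmem126b (an assembly factor of respiratory complex I). It also holds the part of Dlg2 (a synaptic scaffold) from 90476188 on, while most of Dlg2 lies beyond it. Its level was 2.23 and 2.53 in male KO and 1.87 and 2.09 in WT, a log2 difference of 0.27. It ranked 1 of 24023 bins by the ratio of H2AX to input in male WT (log2 1.3). The ranking and the KO difference share the male WT input libraries, so they are not independent. A gene-poor bin of chromosome 14 from 45800001 ranked 2, at 1.88 and 2.08 in KO and 1.6 and 1.78 in WT, a log2 of 0.23. In females both went the other way, at -0.28 and -0.20, so that the sexes differed by 0.55 and 0.43. The bins of Srgap1 (chromosome 10, from 121700001, rank 3) and of Sparcl1 (chromosome 5, from 104000001, rank 7) were called at 0.16 and 0.13, with -0.16 and -0.17 in females. The other 6 of the 10 bins with the highest ratio were not called, at -0.09 to 0.06; rank 4 was at -0.09 (adjusted p = 0.543) and rank 5 at 0.06 (adjusted p = 0.707). The 2 KO libraries of the chromosome 7 bin were further apart than at the stepped loci, and with DESeq2 the bins of chromosome 7 and of chromosome 14 were no longer called (adjusted p = 0.873 and 0.698), at the same log2 differences of 0.27 and 0.23. Without KO replicate 2 the differences were 0.17 and 0.15, and both bins were still called by edgeR. In the H2AX libraries their KO differences were 0.61 and 0.57, and in gH2AX 0.08 and 0.11. The part of H2AX enrichment in their input difference was not tested.

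The other named bins had small differences at levels near 1. The bin of chromosome 2 from 155000001, with a (agouti, a coat colour signal) and Ahcy (which hydrolyses S-adenosylhomocysteine), was at 1.03 and 1.01 in KO and 0.86 and 0.88 in WT, a log2 difference of 0.23. The bin of chromosome 8 from 85100001, with Cks1brt and the zinc finger gene Zfp791, was at 0.18. Chromosome 2 also had lower bins away from its run: from 111800001 with the odorant receptor genes Olfr1303 and Olfr1305 (-0.19), from 122500001 with Slc28a2b (a nucleoside transporter) and Gatm (the first enzyme of creatine synthesis; -0.17), and from 123200001 and 123500001 with no coding gene (-0.20 and -0.17). Over the 4 bins from 123200001 to 123600000 the median log2 was -0.16 in males and -0.02 in females, and 3 were called. The bin of chromosome 3 from 94700001, with Cgn (cingulin, of tight junctions) and Selenbp2, was at -0.16 in males and 0.17 in females, but its KO libraries differed, at 0.81 and 0.90. Several of these calls rested on single libraries. The Cgn bin lost its call without KO replicate 1 (adjusted p = 0.789), WT replicate 1 (0.064) or WT replicate 2 (0.232), and with DESeq2 (0.148). The Zfp791 bin lost it without KO replicate 2 (adjusted p = 0.2) or WT replicate 2 (0.118). On chromosome 2, the bin from 111800001 lost it without WT replicate 2 (adjusted p = 0.197), that from 122500001 without KO replicate 2 (0.0786) or WT replicate 1 (0.299), and that from 123500001 without KO replicate 1 (0.278) or WT replicate 2 (0.248). The 30 called bins outside the naming rule, of which the text describes a few beside their neighbours, were between -0.16 and 0.18.

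The H2AX and gH2AX libraries of the same male groups gave a second look at each called bin, since antibody-enriched DNA also depends on copy number. In all 11 bins past 0.3 the H2AX difference and the gH2AX difference had the sign of the input difference and passed the test. Over all autosomal bins 0.191% were called for H2AX (0.108% higher and 0.0832% lower in KO) and 45.9% for gH2AX (23.6% higher and 22.3% lower). The P4hb bin was at 0.83 in H2AX and 0.91 in gH2AX, and the Srp54b bin at -0.83 and -0.72. The run on chromosome 2 was at -0.43, -0.42 and -0.41 in H2AX and -0.56, -0.54 and -0.38 in gH2AX. The Kif11 bin was at 0.50 and 0.61, the Sema5b bin at 0.42 and 0.54, and the Cyp2c39 bin at 0.48 and 0.21. Of the 42 smaller called bins, H2AX was called in the same direction in 15 and gH2AX in 27. These gH2AX counts are read against a share of called bins that was already large.

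**Figure D4:**
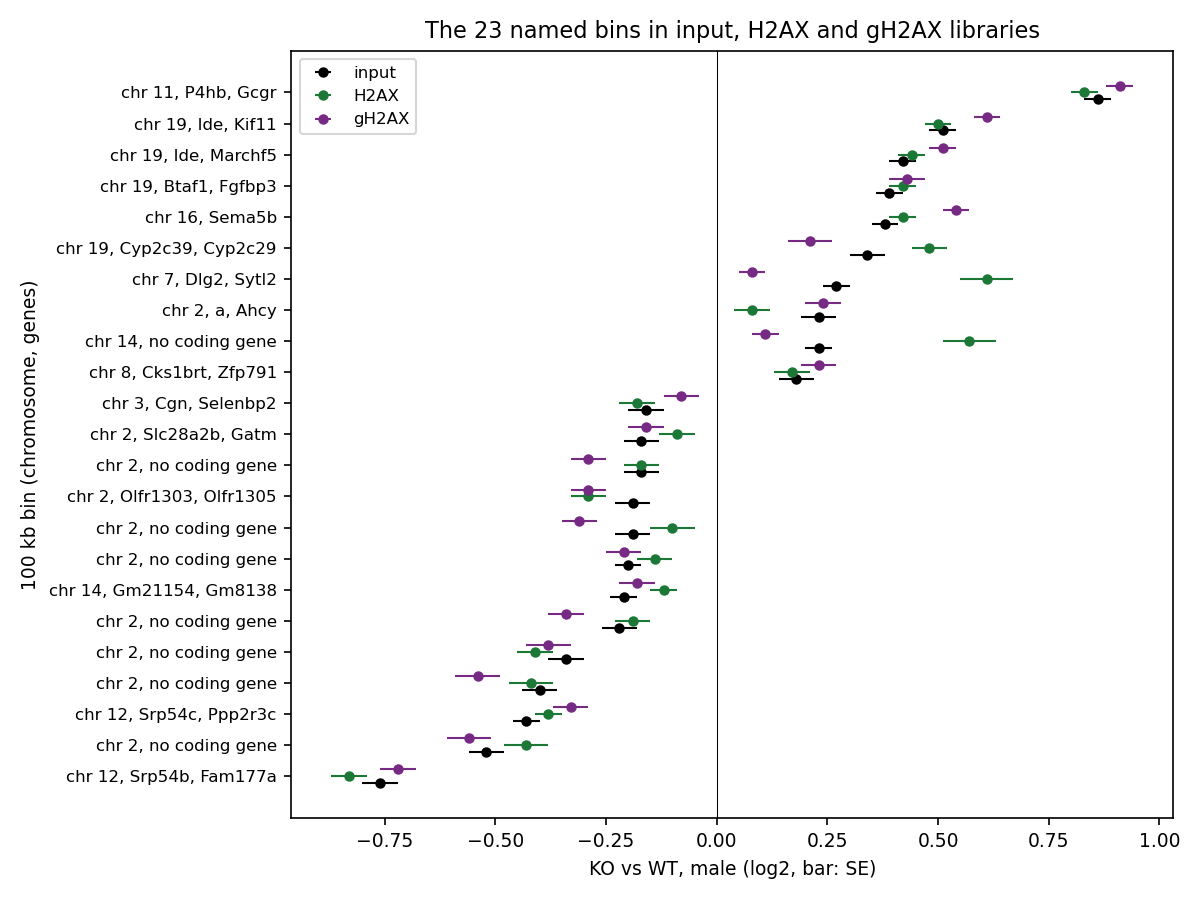
KO against WT log2 difference in male input (black), H2AX (green) and gH2AX (purple) libraries for the 23 named bins. Bars are the SE from each fit, not the spread between the libraries of a group. For the 11 bins past 0.3 in input the 3 assays lie on the same side of 0, from 0.91 at P4hb in gH2AX to -0.83 at Srp54b in H2AX, while the bins on chromosomes 7 and 14 with high H2AX are far higher in H2AX than in input.

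Gene lists gave few called bins outside the copy-variable loci. Each gene takes the value of the bin that holds most of its body. A list of genes known or seen to vary in copy number, chosen with these data known and so no independent evidence, had 4 higher and 2 lower bins among 45: those of Ide and Kif11, Btaf1 and Fgfbp3, Cyp2c29 and Pdia5 (higher), and Srp54b and Srp54c (lower). Other well known variable loci did not pass, such as Glo1 (the enzyme that clears methylglyoxal) at -0.04 and a level of 1.90 and 1.86 in KO and 1.94 and 1.94 in WT. None of the 29 bins of growth control genes was called by edgeR or by DESeq2 (median 0.03, range -0.12 to 0.10), and 6 (20.7%) had an unadjusted p under 0.05. Over all autosomal bins the shares were 0.221% called and 7.58% at an unadjusted p under 0.05, and the counts of these lists are to be read against them. Trp53, the gene of the p53 tumour suppressor, was at 0.05, Cdkn2a, which encodes p16 and p19, at 0.03, Cdkn2b at 0.07, Mdm2, the p53 ubiquitin ligase, at -0.03, Myc at 0.04 and Rb1 at 0.09. No bin passed among 26 of break response genes (median 0.02), 20 of matrix genes of fibroblasts (0.04), 20 of very long genes at fragile sites (-0.01), 7 of sirtuins (-0.01) and 202 of vomeronasal receptors (0.00), with 2, 2, 0, 1 and 7 bins at an unadjusted p under 0.05 and 0 calls by DESeq2. Odorant receptors had 1 lower bin of 338, zinc finger genes 1 higher of 287, and the neighbours of Sirt7 1 higher of 6. The median over all autosomal bins was 0.00.

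The dosage blocks that separate the female groups were flat in males. Over the 17 bins of Tenm3, Wwc2 and Dctd on chromosome 8 (47500001 to 49200000) the male log2 differences ranged from -0.09 to 0.07 and none was called, at levels of 1.02 and 1.01 in KO and 1.00 and 1.01 in WT, where the female median was -0.98. The bins of Hapln1 and Vcan on chromosome 13 were at -0.02 and 0.04 in males and at -0.41 each in females. Across the autosomes 43 bins were called in females (0.179%), and the KO effect differed between the sexes in 63 (0.262%; 36 higher and 27 lower in males).

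Whole chromosomes differed by less than 1% between male KO and WT. Of the 19 autosomes only chromosome 19 passed the test on shares of autosomal reads (limma with Benjamini-Hochberg adjustment), at 2.194% and 2.199% of the reads in KO and 2.181% and 2.175% in WT. The median log2 difference of its bins was 0.0071. The log2 difference of its share was 0.0119 ± 0.0023 (SE, adjusted p = 0.000342), or 0.83% more in KO. Without the called bins it was 0.0082 (adjusted p = 0.0379), and without WT replicate 2 it was 0.0099 and no longer passed (adjusted p = 0.0824). The other 18 autosomes ranged from -0.0080 to 0.0053. Shares depend on each other, so a lower share of a large chromosome raises the rest. Chromosome 2 held 13.027% of the reads in KO replicate 2, 13.179% in KO replicate 1, and 13.175% and 13.177% in WT. Leaving out a library gave 0 to 10 called autosomes (10 without KO replicate 1, 3 without KO replicate 2, 0 without WT replicate 2).

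**Figure D5:**
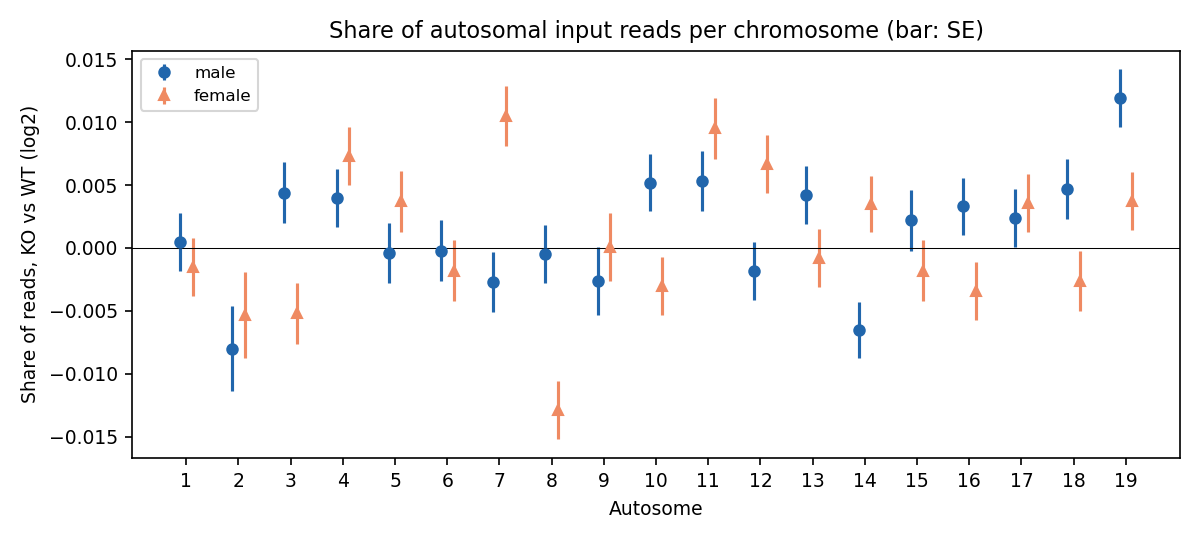
Log2 difference in the share of autosomal input reads of each of the 19 autosomes, KO against WT, in males (blue circles) and females (orange triangles), with bars for the SE. In males chromosome 19 lies highest at 0.0119 and is the only one past the test, and all autosomes lie within 0.0129 of 0 in either sex.

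In windows of 1 Mb, which average over more reads, 35 of 2414 were called (1.45%; 13 higher and 22 lower), and their log2 differences ranged from -0.17 to 0.14. The window with the run on chromosome 2 was the lowest at -0.17, and that with Ide and Kif11 on chromosome 19, from 37000001, the highest at 0.14. The P4hb and Srp54 windows were at 0.11 and -0.11. The number of called windows rested on single libraries: it was 1 without KO replicate 2, 126 without KO replicate 1, 22 without WT replicate 1 and 9 without WT replicate 2. No window reached the step of 0.3.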

How the data were processed

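The data are raw read counts per 100 kb bin of mm10, deposited by the authors as a table for all 24 libraries; 24 further columns of per-sample values in it were not used. Build mm10 is named in the submitters' processing notes, with the aligner Bowtie2 (2.2.9), the trimmer Trimmomatic (0.36) and the tools MACS2 (2.2.7.1), FastQC (0.11.3), deepTools (2.4.2) and SAMtools (0.1.19). How duplicates and reads that map to several places were treated is not given in the sources used here. Repeated sequence can therefore shift levels in repeat-rich bins.

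The counts of the 8 input libraries were fitted together in edgeR 4.0.16 (R 4.3.3), with groups by genotype and sex, edgeR's filter on low counts, autosomal library totals and TMM factors. A quasi-likelihood test was run on 25703 bins of chromosomes 1 to 19 and X, with Benjamini-Hochberg adjustment over all of them and a threshold of 0.05. The common biological coefficient of variation was 1.85%. With 2 libraries a group an exact permutation test cannot go below p = 0.333, so the fit across bins was used. H2AX and gH2AX libraries were fitted in the same way, in separate fits of the 8 libraries of each, both sexes included. Shares of reads per autosome were tested with limma 3.58.1. A step is a called bin with a log2 difference of at least 0.3, non-overlapping groups counted; a run is at least 3 such neighbours.

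Named bins are those of the run and up to 10 called bins in each direction with the largest differences; each gene list adds its called members. The bins of Srgap1, Sparcl1, Lmbrd1 and chromosome 12 from 3100001, and neighbours of named bins, were chosen after their values were seen. The members and lists were chosen with earlier results of these data known. Genes were placed by RefSeq positions (GRCm38.p6, the assembly of mm10). Counts were also simulated from the fitted means and dispersions for the 25703 bins of the male input comparison. At each of 4 sizes 50 bins were changed, all at 0.5 to 1.5 times the median level. Of 1.1-fold changes 68% were recovered, and of 1.2-fold, 1.5-fold and 0.5-fold changes 100%. Of 192 calls 8 were false.

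Alternatives were other normalization and filters, DESeq2 1.42.0, a replicate block, other thresholds and leaving out each library. The fit without the called bins for whole autosomes was chosen after seeing the data. Over 23680 bins the deviations of libraries with the same replicate number had correlations of -0.03 to 0.04. That does not settle whether the numbers mark pairs. In the bin of chromosome 7 from 90400001 replicate 2 was higher in male KO (2.53 and 2.23) and male WT (2.09 and 1.87). In the Kif11 bin it was higher in KO (1.47 and 1.42) and lower in WT (1.01 and 1.03). The labels do not say that equal numbers mark a shared culture, so the main fit held no replicate block.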

Additional observations from a re-analysis of the deposited data

Results flagged for a closer look

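In 15 of the 23 named bins the KO effect on input differed between the sexes (edgeR test of the difference, adjusted p under 0.05). Over all autosomal bins 0.262% passed it. The named bins were chosen by the size of their male difference, which also enters this test. A high count among them follows in part from that choice, so it is a description and no independent support. The values below are the male minus the female log2 difference of KO against WT, and the cause was not tested.

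In the run on chromosome 2 the difference between the sexes was -0.52 (bin from 100500001), -0.38 (100600001) and -0.31 (100700001), and -0.23 in the bin before it (100400001). On chromosome 19 it was 0.41 at Btaf1, 0.43 at Marchf5, 0.48 at Kif11 and 0.36 at the Cyp2c genes. In the bin over the start of Sema5b, on chromosome 16, it was 0.39. In these 9 bins the female libraries showed no called effect.

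The Srp54 cluster had the largest values, -1.14 at Srp54b and -0.64 at Srp54c, and there KO was lower in males and higher in females. The bin of chromosome 14 from 43400001 differed by -0.38 and the Cgn bin of chromosome 3 by -0.33, again with opposite signs in the 2 sexes. The 2 bins with the highest ratio of H2AX to input differed by 0.55 (chromosome 7, from 90400001) and 0.43 (chromosome 14, from 45800001), with KO higher in males and lower in females.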

How the results depend on the processing

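Of the 23 named bins, each refitted under up to 11 alternatives (251 values), 238 kept their direction and their side of the threshold, 13 lost the call and none changed sign; 16 bins kept the call throughout. Those that lost it at least once were on chromosome 2 (from 111800001, 122500001 and 123500001), chromosome 7 (from 90400001) and chromosome 14 (from 45800001). The bins of Zfp791 and Cgn also did. The count of 53 called bins became 28 with DESeq2 (27 of them shared), 35 at an adjusted p under 0.01, and 34 to 62 on leaving out a library, of which 31 to 34 were shared. The 1 run was not found with a step of 0.5 or with 5 or more bins (0 runs), and became 3 with 2 or more bins. Called 1 Mb windows ranged from 1 to 126 on leaving out a library. Called autosomes numbered 3 with the replicate block, 3 when only bins at 0.5 to 1.5 times the median level were kept, and 0 to 10 on leaving out a library. The replicate block gave 55 called bins, 62 bins differing between the sexes, 51 windows and 1 run. The cause of these shifts was not tested. A leave-out fit leaves 1 library in a group and assumes it varies like the others.

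Corrections for GC content, with and without the replicate block, were not run because no genome sequence was used here. A difference of 1.1-fold in a bin was recovered in 68% of simulated cases. Those counts followed the fitted model, and the simulation gave 192 calls against 53 in the data. The 68% is therefore no detection limit for the real libraries, and smaller dosage differences may have been missed. A change much shorter than 100 kb is diluted by its bin.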

Other observations

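A few called bins lay at very high levels. A bin near the start of chromosome 12 (from 3100001) was at 48.9 and 46.5 in male KO and 51.02 and 49.9 in male WT, a log2 difference of -0.08. The bin of chromosome 1 from 24600001, at the edge of Lmbrd1, was at 8.91 and 9.66 in KO and 9.85 and 10.4 in WT, a log2 difference of -0.12, with -0.14 in females. In gH2AX that bin differed by -0.60 and in H2AX by 0.02. Of the 353 tested autosomal bins outside 0.5 to 1.5 times the median level 8 were called (2.27%), against 45 of the 23680 inside it (0.19%).

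On the X chromosome, outside the autosomal comparison but in the same fit, 4 of 1670 bins were called between male KO and WT.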
